A study of Mus musculus with 10 samples.

Results

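Spatial transcriptomes of 4 liver tumors driven by human MYC were compared with those of 3 healthy mouse livers, with the tissue as the unit. The 4 tumors named in the study's text, NEJ146, NEJ634, NEJ687 and NEJ723, formed the tumor class and the other 3 tissues, NEJ638, NEJ654 and NEJ677, the liver class, which takes in all 7 tissues and all 10 sections of the series. The sample labels call every section hepatoblastoma, so the division into classes rests on the study's text and not on the labels. Tumors came from ABC-Myc mice on the C57BL/6J strain, in which Cre under the albumin promoter removes a stop cassette ahead of a CAG-driven human MYC in cells that express albumin. The methods name littermates without Alb-Cre, without the MYC transgene or without either as normal controls and do not give the genotype of each liver, the age and sex of these mice were not given in the sources used here, and the labels name tissues, not animals, so that p-values measure the spread between these tissues. NEJ146 was represented by 4 adjacent sections, which were summed into 1 tissue, and each of the other 6 tissues by 1 section. The methods describe perfusion with collagenase for the tumor-bearing mouse and no harvest of the livers.

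Hepatoblastoma is a liver cancer of young children whose cells resemble the fetal hepatoblast, the common precursor of hepatocytes and bile duct cells. Fetal liver makes alpha-fetoprotein and insulin-like growth factor 2, divides rapidly and houses blood formation, and after birth the hepatocyte turns to albumin, clotting factors, bile acids, urea and drug metabolism. MYC is a transcription factor that pairs with MAX at the DNA letters CACGTG, called an E-box, and is known for raising ribosome production, nucleotide synthesis and cell division. Healthy hepatocytes also differ by position, with Wnt signals from the central vein maintaining a pericentral set of genes such as glutamine synthetase and Cyp2e1.

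Each Visium spot collects polyadenylated RNA from a small area of a 10 µm frozen section, and transcripts were counted as unique molecular identifiers (UMIs). Tissue spots held 39280329 UMIs in NEJ677 to 380239390 in NEJ146, and 42493457 to 57428022 in the other 5 tissues. Levels are given as CPM, the UMIs of a gene scaled to a common total per tissue, always in the order NEJ146, NEJ634, NEJ687 and NEJ723 for tumors and NEJ638, NEJ654 and NEJ677 for livers. Differences are log2 fold changes of tumors over livers from edgeR with their standard error, relative to scaling factors (TMM) that shifted tumors against livers by 0.45 on the log2 scale, and a gene was called at a Benjamini-Hochberg adjusted p under 0.05 over all genes tested. The 50 genes with the most UMIs took 23.7% ± 2.39 of the UMIs in tumors (SD, n = 4) and 35.8% ± 1.71 in livers (SD, n = 3, exact permutation test over tissues, two-sided p = 0.0571, the smallest these numbers allow). Genes at 1 CPM or more numbered 12516.5 ± 265 in tumors and 11843 ± 239 in livers (exact permutation p = 0.0571). NEJ146 and NEJ638 stood apart within their class. The mitochondrial share of UMIs was 6.96% in NEJ146 and 2.84% to 3.86% in the other tumors, and NEJ146 alone was labeled total RNA and counted with Cell Ranger. NEJ638 was the highest of the 3 livers for 58.8% of all genes tested and for 76.9% of the genes called higher in tumors.

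Of 14889 genes tested, 7639 were called, which is 51.3%. Of these 3957 were higher in tumors (26.6% of genes tested) and 3682 lower (24.7%). In CPM without the TMM factors, all 4 tumors lay above all 3 livers for 40.6% of genes tested and below them for 15.8%. These shares are given for reading beside every count below. The gene lists were chosen with earlier results of these data known, so a count in a list can exceed them through that choice. A change of at least 4-fold was seen for 1213 genes called higher and 913 called lower, and of at least 16-fold for 360 and 203. The split between directions moved with the scaling. Higher calls made up 51.8% of calls with TMM, 74.1% with library sizes alone (5891 higher and 2056 lower) and 72.7% with limma on log2(CPM + 1) (5597 and 2104). The median log2 fold change over all genes tested was 0.04, 0.49 and 0.34 in these fits. Without NEJ146, 3940 genes were called higher and 3715 lower, and without NEJ638, 3471 and 3255. In sections of mixed cells, fewer cells of a type and less RNA per cell cannot be told apart.

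**Figure D1:**
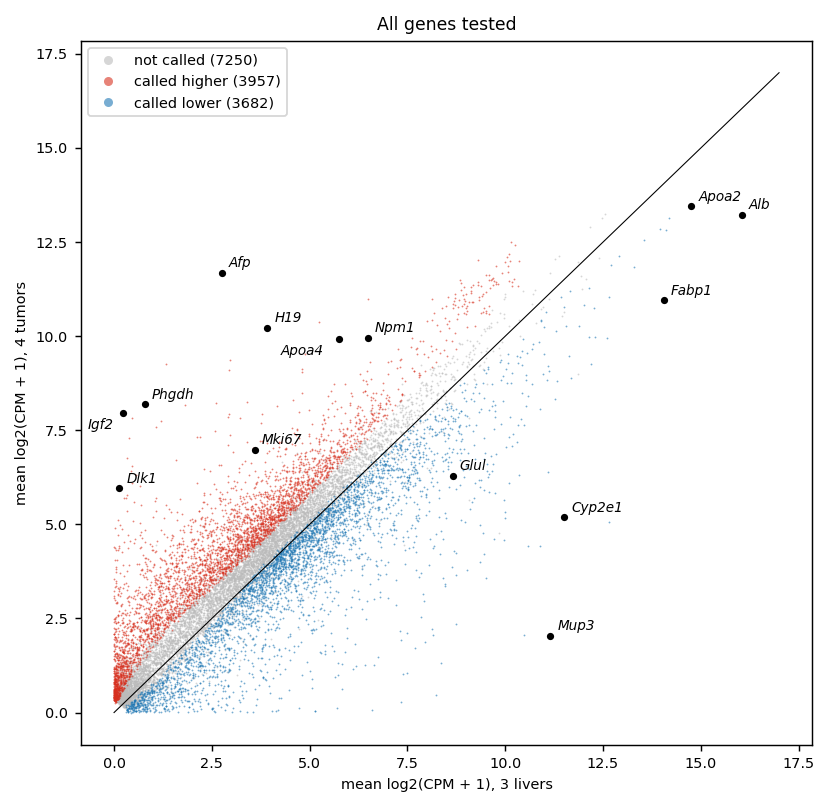
Mean log2(CPM + 1) of each of 14889 genes over the 3 livers (x axis) against the mean over the 4 tumors (y axis), with 3957 genes called higher in red, 3682 called lower in blue and the diagonal marking equal levels. Afp, Igf2, Dlk1 and H19 lie far above the diagonal and Mup3, Cyp2e1 and Fabp1 far below it, while Alb and Apoa2 remain among the most counted genes of both classes.

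Genes of the fetal liver program were higher in tumors. Of 18 oncofetal genes tested, 13 were called higher and 1 lower, with a median log2 fold change of 3.79. Afp, which encodes the fetal plasma protein used as a serum marker of hepatoblastoma, was counted at 2044, 4248, 4083 and 3280 CPM in tumors and at 9.63, 3.79 and 4.96 CPM in livers. Every tumor lay far above every liver, and the log2 fold change was 8.67 ± 0.48 (adjusted p = 1.15e-04). Igf2, the fetal growth factor, reached 81.3, 267, 435 and 404 CPM against 0.117, 0.165 and 0.255 CPM (log2 fold change 10.21 ± 0.77, adjusted p = 1.63e-04). Livers held 6, 7 and 10 UMIs of it in all. Dlk1, a membrane protein of hepatoblasts, stood at 28.0, 108, 42.7 and 107 CPM against 0.0977, 0.165 and 0.0255 CPM (log2 fold change 9.0 ± 0.71, adjusted p = 1.76e-04). For both genes NEJ146 was the lowest tumor, yet it lay far above all livers.

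Sall4, Lin28b and Igf2bp1 had at most 2 UMIs in the 3 livers together. Sall4, a stem cell transcription factor, stood at 7.92, 4.88, 12.4 and 6.62 CPM in tumors against 1 UMI in the 3 livers together, a ratio of 1058 with a 95% counting interval of 190 to 41799 (adjusted p = 2.01e-04). Lin28b, which blocks maturation of the let-7 microRNAs, stood at 0.573, 4.58, 1.97 and 8.87 CPM against 2 UMIs, and Igf2bp1, which binds the Igf2 messenger, at 0.531, 9.32, 0.453 and 13.2 CPM against 1 UMI. Their ratios were 266 (73.6 to 2194) and 781 (140 to 30857), with adjusted p = 0.00222 and 0.00723, and both genes were lower in NEJ146 and NEJ687 than in NEJ634 and NEJ723. The call of Igf2bp1 was lost with limma. Its relatives differed. Igf2bp3 was called higher at 31.1, 44.2, 37.8 and 40.7 CPM against 14.0, 11.4 and 12 CPM (log2 fold change 1.17 ± 0.11), and Igf2bp2 was the member called lower at 0.418 to 0.437 CPM in tumors against 1.08 to 1.65 CPM in livers (log2 fold change -2.14 ± 0.30).

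Several members are imprinted genes, which are expressed from 1 parental allele. Peg10 rose to 13.8, 22.0, 49.8 and 43.1 CPM from 0.156, 0.0941 and 0.229 CPM, Grb10 to 174, 277, 248 and 215 CPM from 22.1, 6.52 and 3.59 CPM, and Peg3 to 59.1, 143, 129 and 197 CPM from 13.7, 6.61 and 4.10 CPM. Meg3, a long noncoding RNA from the Dlk1 region, stood at 12.1 to 62.4 CPM against 1.45 to 6.70 CPM. The log2 fold changes of these 4 genes were 7.18 ± 0.61, 4.01 ± 0.57, 3.56 ± 0.46 and 2.94 ± 0.59. H19, the noncoding partner of Igf2, was counted at 6020, 2872 and 9068 CPM in NEJ146, NEJ634 and NEJ687 and at 12 CPM in NEJ723, against 80.2, 6.31 and 4.86 CPM in livers. The classes overlapped because NEJ723 fell below NEJ638, and the call (log2 fold change 6.93 ± 2.12, adjusted p = 0.0261) was lost without NEJ654 (adjusted p = 0.0865) or NEJ677 (0.0810). Mest, at 12.7, 53.9, 20.1 and 40.3 CPM against 12.4, 6.90 and 4.61 CPM, was called (log2 fold change 1.5 ± 0.45), with adjusted p = 0.0536, 0.0865 and 0.0876 when NEJ634, NEJ654 or NEJ677 was left out.

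The other 4 members were not called. Epcam, an epithelial adhesion protein of liver progenitors, stood at 7.40, 54.8, 2.09 and 58.8 CPM against 5.08, 2.66 and 1.93 CPM (log2 fold change 2.73 ± 1.03, adjusted p = 0.0550). Gpc3, a membrane proteoglycan of fetal liver, stood at 3.67, 7.5, 4.06 and 30.6 CPM against 5.12, 0.494 and 0.305 CPM (adjusted p = 0.139). Cdkn1c, an imprinted inhibitor of the cell cycle, stood at 43.8, 21.2, 52.2 and 0.527 CPM against 6.80, 3.88 and 1.68 CPM (adjusted p = 0.107), with NEJ723 below every liver, and Hmga2 remained under 1 CPM in every tissue (adjusted p = 0.491). In each of these the lowest tumor overlapped the livers.

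**Figure D2:**
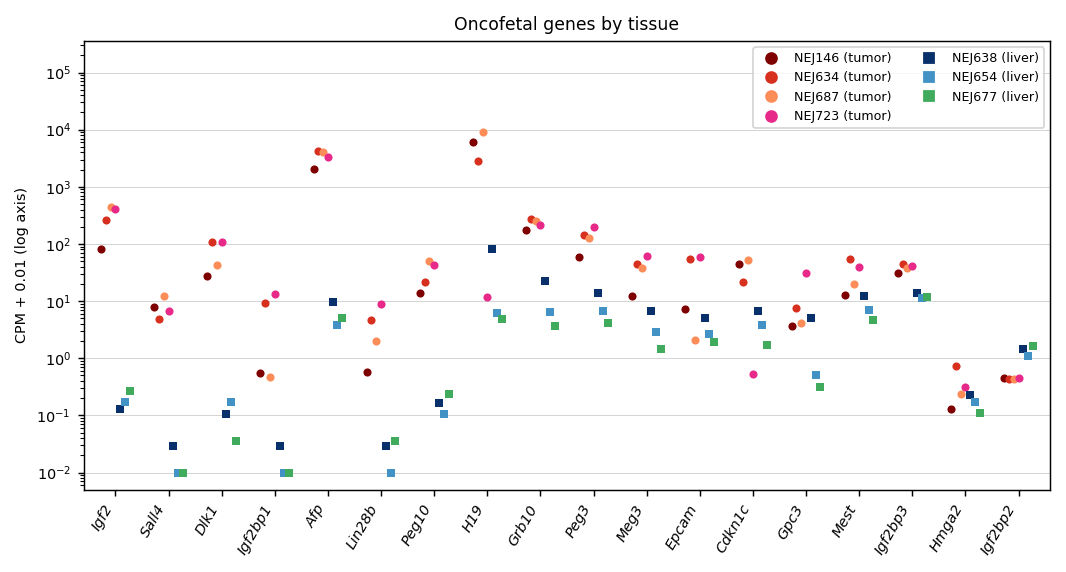
CPM + 0.01 (log axis) of the 18 oncofetal genes in each of the 4 tumors (circles) and 3 livers (squares), ordered by log2 fold change. Tumors and livers do not meet for Igf2, Sall4, Dlk1, Igf2bp1, Afp, Lin28b and Peg10, whereas the NEJ723 value of H19 and of Cdkn1c falls among or below the livers.

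The 10 genes with the largest calls in the tumor direction, among those with a mean of at least 10 CPM and no overlap, included Igf2, Dlk1 and Igf2os. Igf2os is an antisense transcript of the Igf2 locus and overlaps Igf2 on the opposite strand. Whether counting kept the reads of the strands apart was not examined here. Kcnk16, a potassium channel, was counted at 9.13, 29.1, 24.9 and 24.6 CPM against 1 UMI in all livers (ratio 2919, 95% counting interval 524 to 115291). Slc36a2, an amino acid transporter, stood at 30.1, 16.3, 47.8 and 28.6 CPM and Bsn, a scaffold protein of synapses, at 13.1, 18.1, 27.3 and 22.6 CPM, each against 3 liver UMIs (ratios 1359, 465 to 6592, and 899, 308 to 4359). Ggt1, which splits glutathione and is known from fetal liver, stood at 134, 184, 363 and 294 CPM against 0.371, 0.306 and 0.458 CPM (log2 fold change 8.86 ± 0.48, adjusted p = 1.11e-04). Shbg, the plasma carrier of sex steroids, stood at 35, 53.4, 80.2 and 106 CPM against 0.0235 to 0.137 CPM. The remaining 2 are known from intestinal lining, the bile acid carrier Fabp6 at 42.5, 148, 82.4 and 1.65 CPM and the retinol carrier Rbp2 at 33.1, 55.0, 32.3 and 244 CPM, against at most 0.215 CPM in any liver.

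The expression classes of human hepatoblastoma that the study took from earlier work were followed by their classifier genes. All 8 genes of class C2, the proliferative class, were called higher and all 8 of class C1, the differentiated class, were called lower, each with no overlap between tumors and livers. The median log2 fold changes were 2.69 and -2.47. The classifier separates tumors of the 2 classes, and here its genes were compared with healthy liver, so these counts do not assign the tumors to a class. Members also recur in other lists, such as Afp among the oncofetal genes and Rpl10a among the ribosomal protein genes. Among C2 genes, the phosphatase Dusp9 was nearly constant in NEJ634, NEJ687 and NEJ723 at 124 to 125 CPM and stood at 66.1 CPM in NEJ146, against 0.204 to 0.306 CPM in livers (log2 fold change 8.28 ± 0.28, adjusted p = 2.54e-05). Igsf1 ran from 0.650 CPM in NEJ146 to 6.0 CPM in NEJ723 against 0.0509 to 0.215 CPM. The mitotic genes Bub1 and Dlgap5 changed by 3.04 ± 0.56 and 2.29 ± 0.50, Nle1, which acts in ribosome assembly, by 2.35 ± 0.28, the ribosomal protein gene Rpl10a by 1.71 ± 0.27 and E2f5 by 0.91 ± 0.21. Among C1 genes, Cyp2e1 fell to 238, 70.5, 45.6 and 1.21 CPM from 2593, 3599 and 2657 CPM (log2 fold change -5.36 ± 1.36, adjusted p = 0.0124). Aqp9, the glycerol channel, fell to 58.1, 27.8, 48.7 and 1.6 CPM from 303, 320 and 247 CPM, and for both genes NEJ723 lay far below the other tumors. Ghr, the growth hormone receptor, fell by 2.88 ± 0.19 on the log2 scale, Hpd by 2.55 ± 0.43, Aldh2 by 2.40 ± 0.26, C1s1 by 1.46 ± 0.19 and Apcs by 1.18 ± 0.27. Apoc4 (log2 fold change -1.10 ± 0.35) was called in the fit over all tissues, with adjusted p from 0.0542 to 0.0855 when NEJ634, NEJ638, NEJ654, NEJ677 or NEJ723 was left out. With library sizes alone 6 of the 8 C1 genes were called.

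All 20 mitosis genes were called higher with no overlap, with log2 fold changes from 1.59 to 3.05 and a median of 2.68. Mki67, a protein of dividing nuclei, was counted at 81.3, 168, 116 and 157 CPM against 26.3, 10.6 and 4.56 CPM (log2 fold change 2.81 ± 0.50, adjusted p = 0.00286). Birc5 and Ube2c, which act in chromosome segregation and in the breakdown of mitotic proteins, stood at 121 to 185 and 109 to 190 CPM against 5.58 to 36.0 and 6.39 to 32.0 CPM, and the mitotic kinase Cdk1 at 84.6 to 164 CPM against 8.10 to 28.1 CPM. NEJ638 was the highest liver in each of these. Of 22 DNA replication genes, 21 were called higher (median log2 fold change 2.07). The helicase subunits Mcm6 and Mcm7 stood at 118, 174, 134 and 155 CPM against 42.0, 14.3 and 9.93 CPM and at 83.4, 133, 111 and 126 CPM against 24.2, 15.6 and 12.7 CPM. The counts were 20 of 20 and 21 of 22 without NEJ638 as well. The replication count was 20 of 22 when NEJ146, NEJ634, NEJ654, NEJ677 or NEJ723 was left out. Without NEJ146, 1 replication gene was called lower.

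Genes that build ribosomes, a process MYC is known to raise, were higher in tumors. All 20 nucleolar genes were called higher with no overlap (log2 fold change 0.79 to 3.57, median 2.09). Npm1, a nucleolar chaperone, was counted at 896, 1157, 830 and 1137 CPM against 94.0, 77.4 and 96.1 CPM (log2 fold change 3.03 ± 0.21, adjusted p = 1.53e-04). Ncl stood at 426, 704, 633 and 869 CPM against 104, 84.4 and 88.0 CPM, and Nop56, a core protein of the particles that methylate ribosomal RNA, at 173, 292, 290 and 425 CPM against 29.2, 13.2 and 12.1 CPM (log2 fold changes 2.36 ± 0.21 and 3.57 ± 0.36). NEJ146 was the lowest tumor for Ncl and Nop56 and still exceeded the highest liver by at least 4-fold. Of 78 cytosolic ribosomal protein genes, 77 were called higher, with a median log2 fold change of 1.54, and the exception was Rpl3l, a muscle form under 0.4 CPM everywhere. Together they took 206613, 186462, 143504 and 199574 CPM in tumors against 49454, 39627 and 50503 CPM in livers, with no overlap between the sums. Reads of near-identical ribosomal protein copies may be divided between genes.

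Enzymes that supply nucleotides, polyamines and one-carbon units were called higher for 14 of 18 genes and lower for 2, with a median log2 fold change of 1.95. Phgdh, the entry enzyme of serine synthesis, was counted at 238, 305, 321 and 310 CPM against 1.21, 0.447 and 0.586 CPM (log2 fold change 8.17 ± 0.37, adjusted p = 5.54e-05). Srm, which makes spermidine, stood at 289, 343, 389 and 432 CPM against 48.7, 18.0 and 21.8 CPM (log2 fold change 3.20 ± 0.34). Impdh2, which commits purines to guanine nucleotides, stood at 177, 192, 198 and 192 CPM against 45.3, 35.9 and 38.6 CPM, and Atic, the last enzyme of purine synthesis, at 29.8 to 44.4 CPM against 7.48 to 9.50 CPM. The 2 lower genes were Paics, an earlier purine enzyme (172, 147, 135 and 118 CPM against 220, 166 and 182 CPM, log2 fold change -0.82 ± 0.23), and Shmt1, the cytosolic serine hydroxymethyltransferase (-0.68 ± 0.21). Both overlapped the livers, and neither was called with library sizes alone, with limma or without NEJ638 (adjusted p = 0.0517 and 0.0753). Paics was also not called without NEJ677 (0.0570) and Shmt1 without NEJ654 (0.0724). Its mitochondrial counterpart Shmt2 was not called (adjusted p = 0.589) and changed sign with the scaling.

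The promoters of these genes were searched for the E-box. RefSeq promoters on GRCm38.p6, running from 250 bases before to 50 bases after the start, were matched for 11341 of the 14889 genes tested (14488 promoters). CACGTG, which reads the same on both strands, stood in 9.43% of all these promoters (Wilson 95% interval 8.96% to 9.92%), in 11.1% of promoters of genes called higher (10.2% to 12.2%) and in 8.83% of those called lower (7.97% to 9.78%). The intervals treat promoters as independent and may be too narrow. The median number of CG pairs per promoter was 20 for genes called higher and 16 for those called lower, and the groups were not matched for it. The 3789 promoters of genes called higher belonged to 3050 genes, and the 3783 of those called lower to 2865. CACGTG stood in 4 of 18 nucleolar promoters (22.2%, 9.0% to 45.2%) and in 3 of 19 promoters of the nucleotide and one-carbon genes (15.8%, 5.52% to 37.6%). It stood in 3 of 21 of the replication genes, in none of 16 of the mitosis genes (upper limit 19.4%) and in none of 18 of the P450 genes (upper limit 17.6%). Among the nucleolar promoters with a match, only that of Nop2 held it wholly before the RefSeq start, and the other matches reached into the bases after it. In the nucleolar and nucleotide groups, Nop2, Atic, Impdh2 and Paics held the match before the RefSeq start, with its first letter 60, 7, 110 and 203 bases ahead of it. Of these genes, Paics was called lower in tumors. The annotations differ here, since by GENCODE the Impdh2 match lies in an exon of Impdh2 itself, the Paics match in an exon of the neighboring gene Ppat, and most of the Atic match in an exon of Atic. Both on the plus strand and called higher, Nop2 (chr6:125131633-125131882) and Atic (chr1:71556906-71557155) are shown by the 250 bases before the RefSeq start. CACGTG is in capitals, to show where the motif sits in these genes.
Nop2: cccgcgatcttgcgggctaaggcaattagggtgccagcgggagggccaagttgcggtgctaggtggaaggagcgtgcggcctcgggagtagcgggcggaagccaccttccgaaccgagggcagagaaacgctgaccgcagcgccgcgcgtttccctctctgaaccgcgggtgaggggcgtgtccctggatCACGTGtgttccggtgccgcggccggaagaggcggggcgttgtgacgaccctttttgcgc
Atic: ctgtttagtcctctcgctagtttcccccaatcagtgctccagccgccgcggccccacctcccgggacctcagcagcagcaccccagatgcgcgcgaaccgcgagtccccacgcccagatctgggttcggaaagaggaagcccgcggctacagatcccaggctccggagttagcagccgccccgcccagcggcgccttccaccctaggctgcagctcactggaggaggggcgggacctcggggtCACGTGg
Nop2 itself stood at 44.6, 62.8, 85.7 and 78.3 CPM against 16.6, 8.87 and 9.78 CPM. A match describes these letters and does not show binding.

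The mouse Myc network was examined next, and the human transgene has no row of its own among the counted genes. Whether reads of the transgene were counted in the mouse Myc row was not examined here. Mouse Myc was counted at 4.46, 5.25, 5.62 and 3.78 CPM in tumors and at 39.0, 3.04 and 5.91 CPM in livers. The high value belonged to NEJ638 alone, and the call (log2 fold change -2.09 ± 0.72, adjusted p = 0.0399) was lost without it (log2 fold change -0.41, adjusted p = 0.362) and without NEJ146, NEJ634, NEJ687 or NEJ723 (0.0669 to 0.0835). Mycl fell to 2.08, 1.13, 1.27 and 0.344 CPM from 4.77, 6.66 and 8.73 CPM, and Mycn, under 1 CPM everywhere, was not called (adjusted p = 0.0534). Max, the partner of MYC at DNA, was called higher at 19 to 26.9 CPM against 7.92 to 12.4 CPM (log2 fold change 0.82 ± 0.16). Of the other proteins that pair with MAX or MLX, Mxi1 was called higher by 0.65 ± 0.17, Mxd4 was called lower at -1.01 ± 0.22 and Mxd1 was not called (adjusted p = 0.116). Mlx was called lower at -0.93 ± 0.18, a call lost with library sizes alone. Mnt, Mxd3 and Mga were called higher by 0.89 ± 0.22, 1.46 ± 0.48 and 0.44 ± 0.14, with adjusted p up to 0.05002 for Mnt (without NEJ654), 0.118 for Mxd3 (without NEJ654) and 0.118 for Mga (without NEJ677) when a tissue was left out. Mxd3 was also not called without NEJ634, NEJ677, NEJ687 or NEJ723 (0.0529 to 0.0739), and Mga without NEJ654, NEJ687 or NEJ723 (0.0513 to 0.0874). In all, 5 of 11 members were called higher and 4 lower, against 6 and 2 with library sizes alone and with limma, where Myc and Mlx were not called.

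Genes of sugar metabolism moved in both directions. Of 14 glycolytic genes shared by many tissues or used by fetal liver, 10 were called higher and 1 lower (median log2 fold change 1.0). The higher calls numbered 13 with library sizes alone or limma, and 7 without NEJ638 or without NEJ654. Pkm, the pyruvate kinase of growing cells, was counted at 111, 134, 121 and 155 CPM against 27.9, 19.3 and 15 CPM (log2 fold change 2.21 ± 0.19, adjusted p = 2.15e-04), and Eno1 stood at 322 to 529 CPM against 91.3 to 139 CPM (1.45 ± 0.23). Ldha and Pgam1 were called higher by 0.74 ± 0.20 and 0.77 ± 0.21, with adjusted p = 0.0547 for Ldha without NEJ638 and 0.0770 for Pgam1 without NEJ654. Gapdh, Pgk1 and Tpi1 lay above the livers in every tumor but were not called (adjusted p = 0.0712, 0.1001 and 0.271), and Pfkm was the gene called lower (-1.23 ± 0.18). Of 13 genes of the liver's own glucose handling, 10 were called lower (median -1.71). Fbp1, an enzyme of glucose synthesis, fell to 228, 188, 135 and 73.6 CPM from 1375, 1133 and 1271 CPM (log2 fold change -3.41 ± 0.43). Pck1, at 331, 177, 258 and 11 CPM against 1437, 555 and 818 CPM, was called (adjusted p = 0.0427), with adjusted p of 0.0661 to 0.108 when NEJ634, NEJ638, NEJ654, NEJ677 or NEJ687 was left out. Pcx and G6pc were not called (adjusted p = 0.552 and 0.0546). Pfkl was called higher by 1.05 ± 0.28, with adjusted p = 0.0619 without NEJ654 and 0.0581 without NEJ677.

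Genes of the mature hepatocyte were lower across its functions. All 20 cytochrome P450 genes lay below the livers in every tumor and 17 were called lower, with a median log2 fold change of -4.03. Their sum was 4207, 1290, 1823 and 429 CPM in tumors against 13354, 17123 and 15514 CPM in livers. Cyp2f2 fell to 76.7, 20.3, 23.0 and 8.16 CPM from 750, 727 and 1072 CPM (log2 fold change -5.06 ± 0.83, adjusted p = 0.00200) and Cyp2d26 to 170 to 411 CPM from 627 to 1050 CPM. Cyp3a11, the main drug-metabolizing enzyme of its family in mouse liver, stood at 2078, 530, 773 and 77.9 CPM against 3205, 3348 and 4673 CPM and missed the threshold (adjusted p = 0.0562), as did Cyp2c29 at 255, 35.2, 50.9 and 0.115 CPM (0.0757) and Cyp4a14 (0.0588). In each of the 5 genes NEJ723 was the lowest tumor, and in all but Cyp2d26 NEJ146 was the highest. All 20 P450 genes were called lower without NEJ146, 15 without NEJ638 and 14 without NEJ654.

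The 10 genes with the largest calls in the liver direction were 7 major urinary protein genes, Slco1a1, Hsd3b5 and Ces3b. Their levels also differed widely among livers. Summed over 21 Mup genes, whose near-identical copies make single-gene values uncertain, tumors held 290, 44.4, 45.7 and 34.8 CPM and livers 507, 4413 and 14722 CPM. Mup3 stood at 18.7, 2.67, 1.43 and 0.642 CPM against 364, 3635 and 8889 CPM (log2 fold change -9.83 ± 1.82, adjusted p = 0.00325), and Mup11, Mup7, Mup16, Mup1, Mup17 and Mup14 were under 0.4 CPM in every tumor. Slco1a1, an organic anion transporter, stood at 0.0229 to 0.174 CPM against 5.96, 74.0 and 267 CPM, Hsd3b5 at 0.0174 to 0.0687 CPM against 3.61, 8.45 and 138 CPM and the carboxylesterase Ces3b at 0.0229 to 1.48 CPM against 137, 320 and 594 CPM. Slco1a1 and Hsd3b5 belong to the male-biased liver genes, of which 7 of 8 were called lower (median log2 fold change -5.54) and 4 of 8 without NEJ677. Of 6 female-biased genes tested, 5 were called lower (median -6.40), among them Cyp2b9 at 12.2, 2.88, 2.23 and 0.275 CPM against 199, 454 and 46.1 CPM and Cyp3a44, the latter not called with limma without NEJ146. Mup20 (270, 39.9, 43.2 and 33.8 CPM against 80.4, 192 and 3395 CPM) and Cyp2d9 (32.0 to 94.6 CPM against 125, 126 and 818 CPM) were highest in NEJ677, without which their adjusted p was 0.585 and 0.0566, and Mup20 was also not called without NEJ634, NEJ654, NEJ687 or NEJ723 (0.0503 to 0.104). Xist, which is expressed from the inactive X, was counted at 38.9, 63.9, 46.8 and 49.5 CPM in NEJ146, NEJ634, NEJ638 and NEJ654 and under 0.1 CPM in the other 3 tissues, which alone expressed the Y-linked Eif2s3y at 35.7 to 52.4 CPM. Each class thus held tissues of both kinds, and neither gene was called.

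Genes of nitrogen metabolism were lower in tumors. Of 9 urea cycle and arginine genes, 7 were called lower (median log2 fold change -1.15). Arg1, which releases urea, was counted at 388, 290, 350 and 288 CPM against 919, 628 and 600 CPM (log2 fold change -1.53 ± 0.25), and Ass1 at 1092, 583, 1085 and 532 CPM against 1356, 1562 and 1223 CPM, a call whose adjusted p was 0.0594 to 0.108 without NEJ634, NEJ638, NEJ654, NEJ677 or NEJ723. Cps1, the entry enzyme of the cycle, was not called at 2265, 1585, 2306 and 1168 CPM against 2482, 1867 and 1701 CPM (adjusted p = 0.216), nor was the carrier Slc25a13 (0.0850). Amino acid breakdown showed a larger shift, with 15 of 18 genes called lower and a median of -2.37. Mat1a and Gnmt, which make and use the methyl donor S-adenosylmethionine, fell to 365 to 719 and 512 to 1073 CPM from 1705 to 2802 and 1551 to 2504 CPM, and Bhmt, which remethylates homocysteine, to 1019, 519, 271 and 282 CPM from 2131, 2617 and 2979 CPM. Cth and Sds were not called (adjusted p = 0.130 and 0.308).

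Lipid and bile acid genes were also lower. Of 12 genes of bile acid synthesis and transport, 10 were called lower (median -1.84), such as Slc10a1, the bile acid importer, at 330, 238, 362 and 144 CPM against 683, 643 and 617 CPM (log2 fold change -1.68 ± 0.36), Slc27a2 (-1.94 ± 0.32) and Slc27a5 (-3.11 ± 0.78). Abcb11, the export pump, was not called at 453, 280, 486 and 116 CPM against 296, 456 and 469 CPM (adjusted p = 0.282), nor was Akr1d1 (0.0788). Of 14 fatty acid oxidation genes, 10 were called lower (median -1.12). Acaa2, the last enzyme of a turn of the mitochondrial cycle, fell to 416 to 542 CPM from 956 to 1034 CPM (-1.44 ± 0.22). Of 16 cholesterol synthesis genes, 11 were called lower and 1 higher (median -1.26). Hmgcs1 fell to 136, 170, 88.9 and 55.1 CPM from 523, 456 and 395 CPM (-2.45 ± 0.38) and Fdps to 53.7 to 114 CPM from 171 to 343 CPM. Without NEJ638, 8 of the 16 cholesterol genes were called lower, and without NEJ654 or NEJ677 none was called higher.

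Secreted products of the hepatocyte were lower but remained abundant. Of 22 plasma protein and apolipoprotein genes, 17 were called lower and 1 higher (median log2 fold change -1.35), and their sum was 77453, 76018, 96854 and 89297 CPM against 213971, 243955 and 207136 CPM. Alb, Apoa2 and Apoe were among the 5 genes with the highest mean CPM in both classes, joined by mt-Co1 and mt-Co3 in tumors and by Fabp1 and Ahsg in livers. The place of mt-Co3 rested on NEJ146, since it stood at 16566, 7986, 7851 and 6319 CPM in tumors. Ahsg stood there at 6282, 5545, 7411 and 10904 CPM. Alb stood at 9622, 13131, 8633 and 7839 CPM against 69835, 85700 and 51663 CPM (log2 fold change -3.26 ± 0.37, adjusted p = 4.98e-04). Fabp1, the liver fatty acid carrier, stood at 2313, 2375, 1691 and 1670 CPM against 20485, 10166 and 23337 CPM (-3.60 ± 0.40). Apoa2, Apoe and Ahsg fell by 1.70 ± 0.37, 1.51 ± 0.32 and 1.69 ± 0.31 on the log2 scale. The member called higher was Apoa4, an apolipoprotein made mainly by intestine, at 285, 657, 685 and 7070 CPM against 40.9, 60.7 and 58.6 CPM (4.79 ± 1.20, adjusted p = 0.0118). Ambp and Rbp4 were not called (adjusted p = 0.700 and 0.111).

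Of 26 coagulation and complement genes, 20 were called lower (median log2 fold change -1.54). F2, prothrombin, was counted at 765, 672, 1179 and 721 CPM against 1766, 1717 and 1451 CPM (-1.41 ± 0.27) and Plg, plasminogen, at 532, 285, 940 and 314 CPM against 1403, 1631 and 1433 CPM (-1.94 ± 0.46). C3 (-1.15 ± 0.37) was called in the fit over all tissues, with adjusted p of 0.0552 to 0.0909 without NEJ634, NEJ638, NEJ654, NEJ677 or NEJ723. The 3 fibrinogen genes were not called, and for each NEJ687 stood at the level of the highest livers. Fgb stood at 2077, 1923, 5104 and 1737 CPM against 2927, 4397 and 5068 CPM (adjusted p = 0.0845), with Fga (0.0633) and Fgg (0.0704) in the same pattern. Of 16 hepatocyte transcription factors, 12 were called lower (median -1.29). Cebpa fell to 67.6, 61.6, 69.6 and 43.5 CPM from 185, 187 and 176 CPM (-2.02 ± 0.24, adjusted p = 5.74e-04) and Rxra to 79.1 to 132 CPM from 173 to 207 CPM. Hnf4a, a central regulator of hepatocyte genes, changed less, at 127, 123, 178 and 123 CPM against 200, 166 and 193 CPM (-0.88 ± 0.21), with NEJ687 inside the livers and no call with library sizes alone or limma, and Cebpb was not called (adjusted p = 0.121). With library sizes alone 13 plasma protein, 15 coagulation and complement and 8 transcription factor genes were called lower.

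The Wnt and pericentral genes were lower in tumors with 1 exception. Of 13 tested, 12 were called lower and 1 higher, with a median log2 fold change of -3.81. Glul, glutamine synthetase, which marks the hepatocytes nearest the central vein, was counted at 93.9, 89.0, 116 and 36.4 CPM against 333, 561 and 348 CPM (log2 fold change -2.74 ± 0.43, adjusted p = 0.00171). Oat, which converts ornithine, fell to 42.8 to 89.1 CPM from 651, 1433 and 675 CPM, Lect2 to 32.9, 48.7, 23.0 and 1.90 CPM from 432, 377 and 209 CPM and the glutamate transporter Slc1a2 to 5.14, 0.955, 1.6 and 0.0458 CPM from 92.6, 139 and 76.2 CPM. NEJ723 was the lowest tumor in each. Znrf3, which removes Wnt receptors, was the exception at 8.95, 13.1, 14.4 and 17.7 CPM against 7.82, 6.14 and 4.81 CPM (0.65 ± 0.20), with adjusted p of 0.0529 to 0.105 without NEJ654, NEJ677, NEJ687 or NEJ723.

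**Figure D3:**
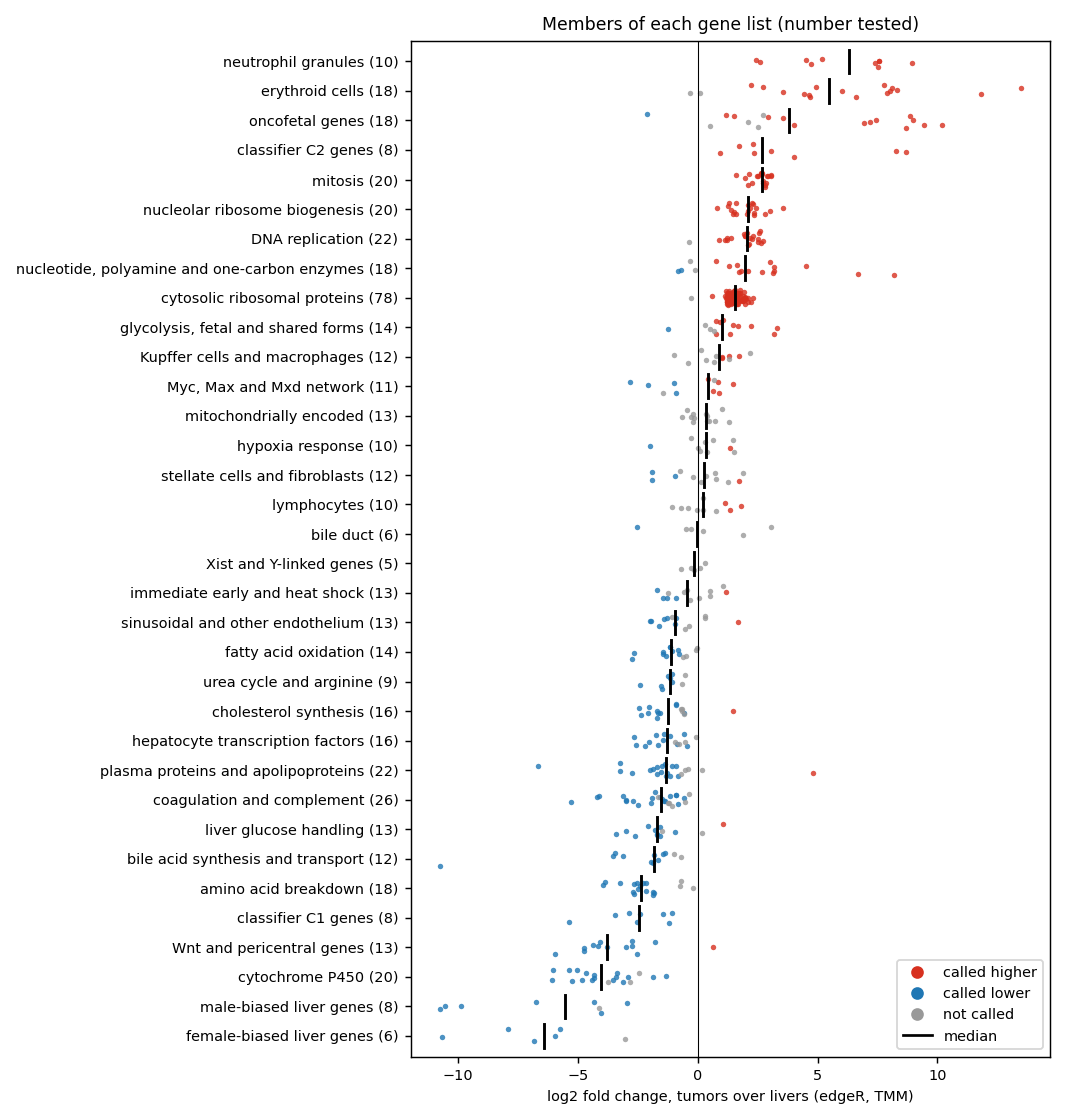
Log2 fold change of tumors over livers (x axis) for the tested members of each gene list, 1 point per gene, with genes called higher in red, called lower in blue and not called in gray, and a bar at the median. All tested mitosis, nucleolar, classifier C2 and neutrophil granule genes lie to the right of 0, and all P450 and classifier C1 genes to the left.

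**Figure D4:**
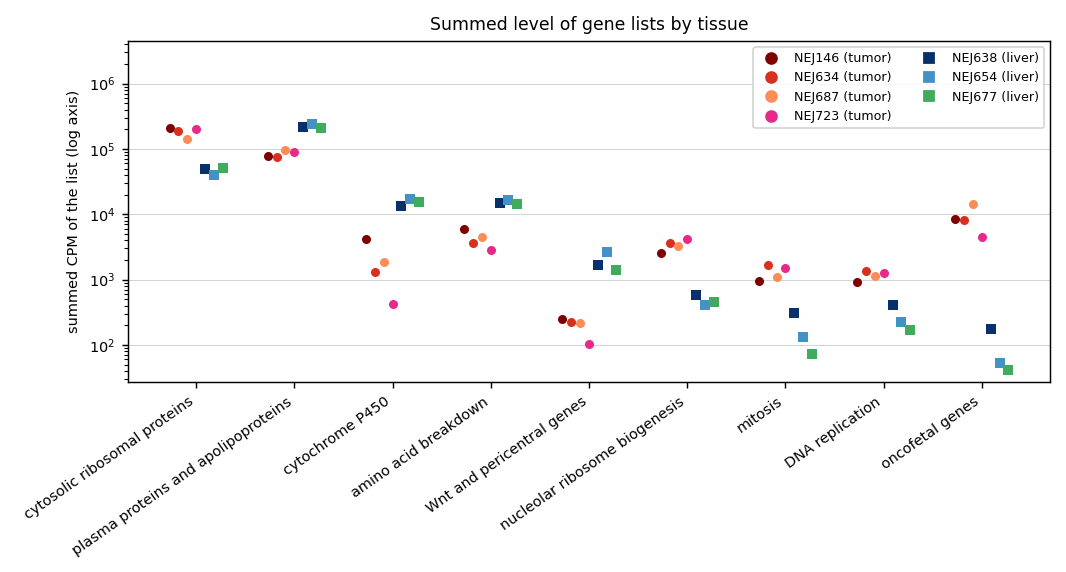
Summed CPM (log axis) of 9 gene lists in each of the 4 tumors (circles) and 3 livers (squares). Tumor and liver sums do not overlap in any of the 9, and among tumors NEJ723 has the lowest P450 sum at 429 CPM. The 9 were picked from 34 lists, and sums of some others overlap, such as coagulation and complement or cholesterol synthesis.

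Markers of blood cells and their precursors were higher in tumors. Of 18 erythroid genes tested, 16 were called higher with a median log2 fold change of 5.47, and their sum was 9813, 1098, 9395 and 2784 CPM in tumors against 286, 113 and 265 CPM in livers. Hbb-bs and Hba-a1, adult globin genes whose copies are nearly identical, stood at 5588, 479, 4828 and 1317 CPM against 132, 47.5 and 112 CPM and at 1778, 195, 1608 and 544 CPM against 38.5, 14.2 and 41.3 CPM (log2 fold changes 4.64 ± 1.02 and 4.69 ± 0.95). Genes of erythroid precursors were higher too, and those named next were chosen after their values were seen. Gata1, the erythroid transcription factor, stood at 2.32, 1.29, 9.12 and 4.19 CPM against 0, 0.0235 and 0.0764 CPM (6.59 ± 1.10). Rhd and Epb42 had no UMI in any liver, which puts them at least 761-fold and 233-fold higher in tumors, taking 3 counts over the livers as the limit. NEJ634 was the lowest tumor for all of these. Alas2, which makes heme in erythroid cells, was not called at 38.0, 5.31, 53.7 and 18.6 CPM against 12.7, 16.5 and 50.7 CPM (adjusted p = 0.766).

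All 10 neutrophil granule genes were called higher with no overlap, with a median of 6.29 and sums of 444, 853, 1327 and 590 CPM against 45.4, 31.9 and 20.3 CPM. S100a9, a calcium-binding protein of mature neutrophils, stood at 159, 278, 414 and 151 CPM against 11.3, 5.20 and 4.51 CPM (log2 fold change 4.74 ± 0.50), and Camp, a granule peptide, at 43.5, 87.9, 184 and 70.0 CPM against 0.821, 0.118 and 0.204 CPM (7.5 ± 0.80, adjusted p = 4.09e-04). NEJ687 was the highest tumor for both. The hemoglobin share of all UMIs was 0.530% ± 0.425 in tumors (SD, n = 4) and 0.0169% ± 0.00779 in livers (SD, n = 3, exact permutation p = 0.0571), and leaving mitochondrial and hemoglobin UMIs and the transcript Gm42418 out of the fit gave 4081 genes called higher and 3598 lower. The part that blood cells play in the other gene groups was not tested.

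Resident liver cells showed smaller and mixed differences, although the summed CPM of the Kupffer, endothelial and lymphocyte markers did not overlap between classes. Kupffer sums were 933 to 2659 CPM in tumors against 505 to 834 CPM in livers, endothelial sums 160 to 342 against 357 to 428 CPM and lymphocyte sums 19.7 to 27.5 against 13.5 to 16.9 CPM. These sums leave out the TMM factors, and once divided by them the Kupffer and lymphocyte sums overlapped. Of 12 Kupffer cell and macrophage markers, 4 were called higher and none lower, and 7 were called higher with library sizes alone, 8 without NEJ723 and 2 without NEJ638. Cd68, a macrophage lysosomal protein, stood at 48.6 to 69.1 CPM against 10.6 to 14.7 CPM (log2 fold change 1.71 ± 0.22) and Lyz2 at 254 to 468 CPM against 71.0 to 120 CPM (1.28 ± 0.29). The complement genes C1qb and C1qc were also called higher and were the 2 that lost their call without NEJ638 (adjusted p = 0.0510 and 0.0669). C1qc was also not called without NEJ654, NEJ677 or NEJ687 (0.05001 to 0.0540). Clec4f, which defines resident Kupffer cells, was not called at 75.6, 96.0, 146 and 0.275 CPM against 77.1, 152 and 116 CPM (adjusted p = 0.521), with NEJ723 nearly without it, nor was Cd5l (0.113). Of 13 endothelial markers, 7 were called lower and 1, Cd34, higher. Plvap and the sinusoidal genes Stab2 and Clec4g stood at 29.4 to 65.6, 28.9 to 47.6 and 2.66 to 33.6 CPM in tumors against 53.8 to 69.4, 43.4 to 59.0 and 61.0 to 70.1 CPM in livers, and 4 endothelial markers were called lower with library sizes alone and 3 without NEJ654. Without NEJ654 adjusted p was 0.0685 for Plvap, 0.0560 for Stab2, 0.113 for Clec4g and 0.133 for Cd34. Clec4g and Cd34 were also not called without NEJ634 (0.107 and 0.0917) or NEJ677 (0.1003 and 0.126), Clec4g without NEJ638 or NEJ687 (0.0785 and 0.0677), and Cd34 without NEJ723 (0.0754).

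Of 12 stellate cell and fibroblast markers, 3 were called lower and 1 higher, and 3 were called higher with library sizes alone, with limma and with DESeq2. Colec11 stood at 45.4, 29.1, 43.1 and 40.4 CPM against 64.8, 54.2 and 51.8 CPM (-0.94 ± 0.23), Reln at 18.1, 32.8, 23.6 and 5.91 CPM against 75.8, 54.3 and 39.5 CPM (-1.92 ± 0.48) and Lrat, which stores retinol in stellate cells, at 1.33 to 9.16 CPM against 14.7 to 26.0 CPM (-1.90 ± 0.56, adjusted p = 0.0703 without NEJ638). Acta2, smooth muscle actin, at 27.0, 49.95, 26.2 and 21.0 CPM against 15.2, 4.52 and 1.65 CPM, was the marker called higher, with adjusted p of 0.0689 to 0.152 without NEJ146, NEJ634, NEJ654, NEJ677 or NEJ687. Of 6 bile duct markers tested, Krt23 was called lower (-2.52 ± 0.40) and none higher, while Krt19, the ductal keratin, stood at 7.12, 43.2, 2.05 and 6.07 CPM against 5.31, 1.84 and 1.27 CPM (adjusted p = 0.137). Of 10 lymphocyte markers, 3 were called higher, Cd4, Cd8a and Nkg7, each at 5.20 CPM or less in every tissue, and none of the 10 was called without NEJ638 or NEJ654.

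**Figure D5:**
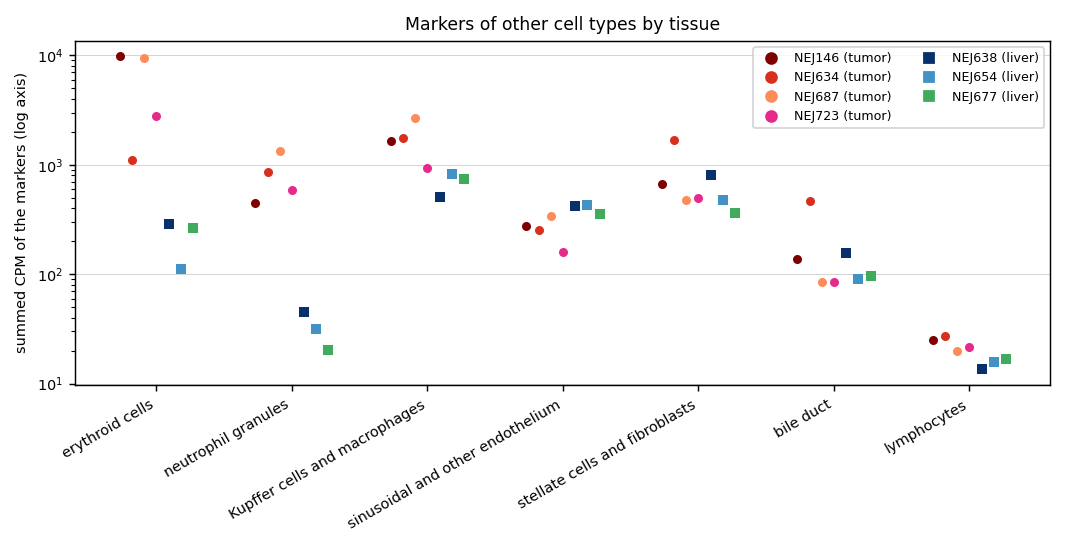
Summed CPM (log axis) of markers of 7 other cell types in each of the 4 tumors (circles) and 3 livers (squares). Erythroid sums (1098 to 9813 CPM in tumors, 113 to 286 CPM in livers) and neutrophil sums (444 to 1327 CPM and 20.3 to 45.4 CPM) lie furthest apart, Kupffer and lymphocyte sums are higher and endothelial sums lower in tumors with no overlap, and stellate and bile duct sums overlap. The sums leave out the TMM factors, and once divided by them the Kupffer and lymphocyte sums overlap.

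Stress programs gave few calls with TMM, and their counts moved with the scaling. Of 10 hypoxia response genes, the glucose transporter Slc2a1 was called higher (1.35 ± 0.34) and the angiogenic factor Vegfa lower, at 25.6, 38.2, 37.0 and 24.5 CPM against 130, 84.2 and 62.9 CPM (-1.99 ± 0.23, adjusted p = 5.71e-04). With library sizes alone or limma, 4 of the 10 were called higher. Of 13 immediate early and heat shock genes, 4 were called lower and 1 higher. Dusp1 stood at 13.4 to 25.3 CPM against 29.0 to 42.4 CPM (-1.28 ± 0.20), Ier2 at 42.1 to 65.5 CPM against 53.3 to 90.4 CPM (-0.90 ± 0.18) and Egr1 at 5.26 to 16.5 CPM against 14.7 to 41.9 CPM (-1.71 ± 0.46), and with library sizes alone Ier2, Egr1 and Hspa1b were not called, which left 1 gene called lower and 2 higher. Egr1 was also not called without NEJ654 (adjusted p = 0.0626). Hspa1b was called lower (-1.46 ± 0.47) and Atf3 higher (1.19 ± 0.41), with adjusted p of up to 0.153 (Hspa1b without NEJ677) and 0.0837 (Atf3 without NEJ677) when a tissue was left out. Hspa1b was also not called without NEJ634, NEJ687 or NEJ723 (0.0605 to 0.0748), nor Atf3 without NEJ146, NEJ634, NEJ654, NEJ687 or NEJ723 (0.0506 to 0.0818). None of 13 mitochondrially encoded genes was called by edgeR, and 1 had an unadjusted p under 0.05. By DESeq2 1 was called higher and by limma 2, whereas edgeR called 5 lower without NEJ146 and 5 higher with library sizes alone. The mitochondrial share of UMIs was 4.27% ± 1.84 in tumors (SD, n = 4) and 2.76% ± 0.271 in livers (SD, n = 3, exact permutation p = 0.114), and mt-Co1 stood at 16631, 9587, 7990 and 7156 CPM against 5016, 7212 and 6104 CPM.

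The spread was larger over the 4 tumors than over the 3 livers, and the difference was smaller without NEJ146. Over the 8022 genes whose mean reached 10 CPM, the median SD of log2(CPM + 1) was 0.283 over the 4 tumors and 0.188 over the 3 livers, and the SD was larger over tumors for 71.3% of these genes. Without NEJ638 the value over livers was 0.125, and without NEJ146 that over tumors was 0.209. NEJ146 alone was labeled total RNA and counted with Cell Ranger, so its part in the spread cannot be told apart from that processing. The classes also differ in size, and no test of the spread was run. The 5 genes tested with the largest SD over tumors at that level were H19, Cyp2c29, Xist, Clec4f and Eif2s3y, of which Xist and Eif2s3y follow the sex chromosomes. In H19, Cyp2c29 and Clec4f the tumor that stood off was NEJ723.

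How widely a gene was found within a section was described by the share of tissue spots with at least 1 UMI after every spot was thinned to 2000 UMIs, which left out 488 spots of NEJ687, 221 of NEJ723, 1 of NEJ634 and 92, 34 and 300 of the livers. Afp was found in 88.5%, 99.6%, 99.9% and 99.7% of tumor spots and in 1.79%, 0.774% and 0.914% of liver spots. Cyp2e1 was found in 24.2%, 10.5%, 6.54% and 0.226% of tumor spots and in 95.1%, 98.0% and 92.4% of liver spots. For both genes the tumor and liver shares did not overlap, and NEJ146 was the tumor nearest to the livers. Mki67 was found in 15.9%, 29.5%, 20.6% and 28.0% against 5.28%, 2.15% and 1.02%. Dlk1 and Epcam, whose levels were below those of Afp and Mki67 in every tumor, were found in fewer spots of each tumor than either. Dlk1 was found in 4.53%, 19.8%, 7.56% and 18.5% of tumor spots and in 0.00569% to 0.0258% of liver spots, and Epcam in 1.3%, 11.1%, 0.348% and 10.8% against 0.332% to 1.06%, with NEJ687 within the livers. A spot holds several cells, and free RNA can give UMIs in spots whose cells lack a gene.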

How the data were processed

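Visium spatial RNA sequencing of 10 sections from 7 tissues was analyzed. The deposited files hold UMI counts per spot and gene, which the authors made, per the submitters' processing notes, with Space Ranger 1.3 on mm10 for 6 sections and Cell Ranger 6.0 for the 4 of NEJ146. Counts were summed over tissue spots into 1 library per tissue. Tissue spots followed the deposited in-tissue call (57.0% to 93.2% of the UMIs of a section), or a minimum of 8000 UMIs for NEJ146, for which no position table was used here. This minimum may keep spots outside the tissue. The array barcodes are shared by design, and 4989 occurred in every section. Labels call every section hepatoblastoma, and the classes follow the study's text.

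Genes passing filterByExpr (14889) were tested with edgeR 4.0.16 (glmQLFit and glmQLFTest, TMM, no covariate) in R 4.3.3, with Benjamini-Hochberg adjustment over all genes. Counts were simulated with the same dispersion for every gene and no change in the remaining genes. There, 69% of 100 genes changed 2-fold (1 on the log2 scale) and 100% of 100 changed 4-fold were called. The real data differ in both respects, so these shares do not carry over to genes that spread widely among tissues. Single values were compared by exact permutation over tissues. Counting intervals are exact Poisson and cover counting error only. A group at 0 was set to 3 counts over the group. Where identifiers shared a symbol (35 symbols), the identifier with more UMIs kept it and the others remained separate genes.

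Named genes were the 10 largest calls per direction with no overlap and a mean of at least 10 CPM, members of each list taken by mean CPM, all oncofetal, classifier and Myc network genes, the 5 genes with the highest level per class and the 5 with the largest SD over tumors. Genes shown for a sequence or an exception were added after their values were seen. Some list members that entered the fits and counts are not reported here by name. Members and lists were chosen with earlier results of these data known. Alternatives were other scalings, DESeq2 1.42.0, limma 3.58.1, filters, other NEJ146 spots and sections, thinning, removal of mitochondrial, hemoglobin and Gm42418 UMIs, and leaving out each tissue. Limma without NEJ146 was added after seeing the data. Scripts ran in Python 3.11.15.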

Additional observations from a re-analysis of the deposited data

Results flagged for a closer look

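Among the 4 tumors, 1 tissue stood off from the other 3 for 9 of 184 values compared (4.89%). There its gap to the nearest tumor, as a share of the whole range, exceeded Dixon's 95% critical value. The values were log2(CPM + 1) of 180 named genes, and the rest were quality measures such as the mitochondrial share. Chance alone gives about 1 in 20 such groups where values are independent and not selected. Some of these genes were chosen for a large SD over tumors and some share a pattern, so the share is a description. NEJ687 was the highest tumor for the 3 fibrinogen genes Fga (0.857), Fgb (0.834) and Fgg (0.842) and for Hnf4a (0.894). NEJ146 was the lowest for Dusp9 (0.987) and Kcnk16 (0.852) and the highest for Mup20 (0.883). NEJ723 was the lowest for Clec4f (0.862) and Lrat (0.864).

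Spots outside the tissue call, which no comparison above used, held 6.81% to 43.0% of the UMIs of a section. Afp stood there at 4255 CPM in NEJ634, 3475 CPM in NEJ723 and 3043 CPM in NEJ687, against 12.2, 8.38 and 16 CPM in NEJ638, NEJ654 and NEJ677. Over genes, log2(CPM + 1) outside and inside the tissue correlated at 0.989 to 0.997 within a section, where genes are not independent replicates.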

How the results depend on the processing

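Calls numbered 2503 higher and 2296 lower among genes at 10 CPM or more, 2056 lower with library sizes alone, 2104 lower with limma, and 6450 higher and 2064 lower with limma without NEJ146. Leaving out 1 tissue gave 2795 to 3940 higher and 2822 to 3715 lower, with the fewest without NEJ654, and a median SD over livers of 0.125 to 0.188, the lowest without NEJ638. Without thinning, the share of spots with a UMI differed by 89.4 points for Afp, -59.1 for Cyp2e1, 52.2 for Dlk1, 27.7 for Epcam and 64.1 for Mki67, against 95.8, -84.8, 12.6, 5.24 and 20.7 with it. Counting CACGCG and CGCGTG as well put the motif in 23.2% of all promoters, 26.7% of those called higher and 19.7% of those called lower. Plasma protein genes called lower numbered 11 with limma without NEJ146, endothelial markers 4 with library sizes alone and 3 to 7 with a tissue left out (3 without NEJ654), and male-biased genes 4 to 8 (4 without NEJ677). Of 180 genes named, 144 were called, of which 105 kept call and direction under each of the 25 alternatives in which the gene was tested and 39 lost the call under at least 1. No gene reversed while called in both fits. Genes that changed sign were not called in either fit. With library sizes alone the log2 fold change was 0.32 for Eif2s3y, 0.33 for Shmt2, 0.13 for Rpl3l and 0.12 for Alas2. With limma it was 0.82 for Eif2s3y, 0.31 for Shmt2 and 0.013 for Rpl3l, and with limma without NEJ146 1.73 for Eif2s3y and 0.41 for Shmt2. With a tissue left out it ran from -0.12 (without NEJ146) to 0.54 for mt-Co1, from -0.18 (without NEJ146) to 0.57 for mt-Co3, from -0.06 (without NEJ634) to 0.80 for Hmga2, from -0.89 to 13.92 (without NEJ677) for Eif2s3y, from -0.73 to 0.65 (without NEJ677) for Alas2, and was -0.12 for Ambp without NEJ687. Eif2s3y stood at 0.13 without NEJ146 or NEJ634, and Alas2 at 0.05 without NEJ634. The causes were not tested. No paired analysis was possible because replicate numbers mark sections of 1 tissue. With 4 tumors and 3 livers, exact tests cannot go below p = 0.0571.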

Other observations

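Genes known from intestinal lining were looked up after Fabp6, Rbp2 and Apoa4 had been seen, so the counts are a description with no test of the group. Of 15 listed, 10 were tested, 7 were called higher in tumors (Apoa4, Cdh17, Fabp6, Krt20, Rbp2, S100g and Vil1), Fabp2 was called lower and Lgals4 and Slc5a1 were not called. S100g, a calcium-binding protein, stood at 133, 224, 201 and 1101 CPM in tumors against 6.08, 0.918 and 2.24 CPM in livers. Krt20, an intestinal keratin, stood at 4.71, 9.94, 6.44 and 20.2 CPM against 0.567, 0.0235 and 0.0255 CPM. Cdh17, an intestinal cadherin, stood at 0.610, 14.0, 0.0348 and 18.5 CPM against at most 0.0782 CPM, with NEJ687 below NEJ638. Defining genes were near 0 in every tissue, with at most 0.0917 CPM for Cdx2, the intestinal transcription factor, 0.0458 CPM for sucrase-isomaltase (Sis) and 0.206 CPM for Alpi. NEJ723 was the highest tumor for Apoa4, Rbp2, S100g, Krt20 and Cdh17, and the lowest for Fabp6.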
